A study of Danio rerio with 20 samples.

Results

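The comparison set the 5 libraries of zebrafish larvae exposed to lithium cobalt oxide (LCO) nanosheets at 10 mg/L directly against the 5 libraries of larvae given the ion treatment. The members were taken by their treatment label, which gives 10 of the 20 libraries in the series. All larvae were wild type (strain WT), and 10 days post-fertilization when sampled, and the exposures lasted 48 hours. RNA came from pools of 20 whole larvae per library. The groups were LCO 10 mg/L (replicates 1, 2, 3, 4 and 6), ion (replicates 1, 2, 3, 4 and 6), LCO 1 mg/L (replicates 1, 2, 3, 5 and 6) and untreated controls (replicates 1 to 5). The labels give neither the makeup nor the dose of the ion treatment, so equal ion exposure in the 2 groups cannot be read from them. The LCO 1 mg/L and control libraries serve as the levels beside each difference.

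LCO is the layered oxide used as cathode material in lithium-ion batteries, and in water it releases lithium and cobalt ions. Cobalt ions are known to block the prolyl hydroxylases that mark hypoxia-inducible factors for breakdown, and lithium ions inhibit glycogen synthase kinase. Setting particles against ions asks what particles do beyond the ions they shed. The tables hold Ensembl transcript identifiers (ENSDART) without gene names or coordinates, and 0 of these could be matched to a named gene. Genes of these pathways, and markers of larval cell types, were therefore not read out. In RNA from whole larvae, fewer cells of a type and less RNA per cell cannot be told apart.

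Library totals ranged from 24950500 to 47031900 estimated counts at LCO 10 mg/L and from 35012700 to 49469200 under ion, with ranges of 30439900 to 52060300 at LCO 1 mg/L and 32568900 to 63120000 in controls. Some libraries stood apart within their own group. On the first principal component of log2 CPM (counts scaled to library size), which held 14.7% of the variance, LCO 10 mg/L replicates 2, 3, 4 and 6 scored 20.9 or higher and replicate 1 scored -35.1. Ion replicates 4 and 6 scored 42.1 and 61.1, and ion replicates 1, 2 and 3 scored between -42.7 and -20.8. LCO 1 mg/L replicates 1 and 2 also scored above 0, and all controls scored below 0. The LCO 10 mg/L group thus had 4 of 5 libraries, and the ion group 2 of 5, on the side away from the controls. The second component held 10.2% of the variance and averaged -10.1 at LCO 10 mg/L and 31.6 under ion. That difference had p = 0.0556 in an exact two-sided permutation test, and 0.111 after adjustment over 6 library measures.

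**Figure D1:**
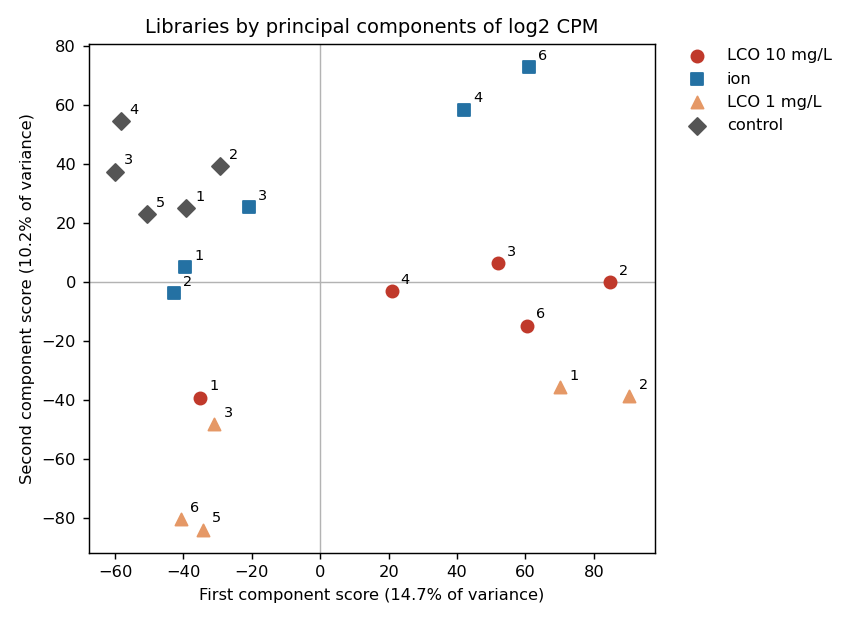
Scores of the 20 libraries on the first (x) and second (y) principal components of log2 CPM, in arbitrary units, with replicate numbers beside the points. LCO 10 mg/L replicate 1 (circle) lies left of 0 at -35.1 and the other 4 of its group lie right of it, while ion replicates 4 and 6 (squares) lie right of 0 and ion replicates 1, 2 and 3 lie left.

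Direct comparison called 48 transcripts higher and 19 lower at LCO 10 mg/L than under ion, which are 0.122% and 0.0483% of the 39355 transcripts tested (edgeR quasi-likelihood test, Benjamini-Hochberg adjusted p under 0.05). With the replicate number as a block and only the 10 libraries fitted, 0 were called, though the labels do not say what these numbers mark. The 48 higher transcripts differed by a median of 1.46-fold, from 1.17-fold to 2.88-fold, and 12 of them differed by at least 2-fold. The 19 lower transcripts differed by a median of 1.80-fold, from 1.42-fold to 3.46-fold, and 8 of them differed by at least 2-fold. Over all transcripts tested, the median size of the difference was 1.11-fold. The LCO 10 mg/L libraries lay above all ion libraries in 48 of the 48 higher transcripts, beside 534 (1.36%) of all tested. They lay below all of them in 17 of the 19 lower ones, beside 609 (1.55%). These transcripts were called on the same 10 libraries, so the separation largely follows from the choice and the percentages do not compare like with like.

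The number of calls changed with the library left out, and the part of the smaller group in this was not tested. Without LCO 10 mg/L replicates 1, 2, 3, 4 and 6 in turn, 100, 40, 19, 23 and 32 transcripts were called. Without ion replicates 1, 2, 3, 4 and 6 in turn, the counts were 30, 60, 19, 20 and 24. Of the 67 transcripts, 15 higher ones and 1 lower one passed in each of these 10 fits. The 15 differed by 1.29-fold to 2.88-fold with a median of 1.94-fold, and 7 of them differed by at least 2-fold.

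The higher transcripts had more counts than most. Their median CPM over the 20 libraries was 20.5, from 1.52 to 1183, against a median of 3.88 for all tested. Their median length was 2549.5 bases, beside 1857 bases for all tested. The transcript with the smallest adjusted p, ENSDART00000173065.2 (701 bases), had 24.1, 22.1, 25.8, 30.1 and 26.8 CPM in LCO 10 mg/L replicates 1, 2, 3, 4 and 6, against 12.8, 10.1, 12.8, 11.7 and 11.3 CPM in ion replicates 1, 2, 3, 4 and 6. The lowest LCO 10 mg/L library stood well clear of the highest ion library. The means were 25.8 ± 3.02 CPM at LCO 10 mg/L and 11.7 ± 1.14 CPM under ion (SD, n = 5 each). The difference was 1.14 on the log2 scale (SE 0.11, 95% interval 0.91 to 1.36), which is 2.20-fold, with an adjusted p of 0.000119 by the edgeR test. Untreated larvae lay between, with 17.6 ± 1.82 CPM and single libraries at 16.7, 16.9, 18.6, 20.3 and 15.6 CPM. No control library overlapped either exposed group. Against control, its log2 fold change was 0.55 at LCO 10 mg/L (adjusted p = 0.00645) and -0.59 under ion (adjusted p = 0.0643, edgeR). In deposited TPM, a relative level that takes transcript length into account, its means were 51.8 at LCO 10 mg/L, 26.1 under ion and 36.3 in controls.

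ENSDART00000076494.5 (2388 bases), the second of the higher transcripts by p, had 129, 158, 190, 211 and 180 CPM in LCO 10 mg/L replicates 1, 2, 3, 4 and 6. The ion replicates 1, 2, 3, 4 and 6 had 81.2, 72.2, 82.5, 57.3 and 83.7 CPM. LCO 10 mg/L replicate 1, the library on the controls' side of the first component, was the lowest of its group, and ion replicate 4 was the lowest under ion. The means were 174 ± 31.6 CPM at LCO 10 mg/L and 75.4 ± 11.1 CPM under ion (SD, n = 5 each), a 2.30-fold difference (SE 0.13 and 95% interval 0.92 to 1.49 on the log2 scale, adjusted p = 0.000686, edgeR). Controls averaged 106 ± 11.6 CPM, again between the 2 groups. Its log2 fold change against control was 0.71 at LCO 10 mg/L (adjusted p = 0.00544) and -0.50 under ion (adjusted p = 0.228, edgeR). Its TPM averaged 84.0 at LCO 10 mg/L, 40.8 under ion and 53.8 in controls.

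The untreated level lay between the LCO 10 mg/L and ion means in 42 of the 48 higher transcripts (87.5%), beside 26.2% of all transcripts tested. A wider gap holds the control mean more often, and the 48 were chosen for their gap. These percentages therefore do not compare like with like. In the other 6 it lay below the ion mean. All 48 averaged above control at LCO 10 mg/L, and 25 of them were called higher than control, where 2.28% of all tested were called higher. That contrast shares its LCO 10 mg/L libraries with the one against ion. After leaving out the libraries away from the controls on the first component, replicate 1 was the only LCO 10 mg/L library left. The median log2 difference of the 48 from control was then 0.22, beside 0.31 in the full fit, and 1 library cannot show whether the calls hold. Under ion, 42 of the 48 averaged below control and 1 was called lower than control, beside 0.028% of all tested, and 0 were called higher, beside 0.00762%. The unadjusted p of ion against control (edgeR) was under 0.05 for 30 of the 48, all lower under ion. Over all 39355 tested it was under 0.05 for 3945, of which 2151 were lower. The ion libraries in this contrast also chose the 48, so the direction partly follows from the choice. The median log2 difference from control was 0.31 at LCO 10 mg/L, from 0.08 to 0.90, and -0.27 under ion, from -0.90 to 0.16. The part of the difference that lay between LCO 10 mg/L and control had a median share of 0.561 of the whole.

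The 1 higher transcript that also passed the test against control under ion is 2119 bases long. It had 81.6, 74.5, 83.9, 78.2 and 81.8 CPM in LCO 10 mg/L replicates 1, 2, 3, 4 and 6, against 62.3, 58.3, 58.4, 56.5 and 57.2 CPM in ion replicates 1, 2, 3, 4 and 6. The groups did not overlap, and the level at LCO 10 mg/L was close to that of untreated larvae. The means were 80.0 ± 3.68 CPM at LCO 10 mg/L, 58.5 ± 2.26 CPM under ion and 75.9 ± 5.02 CPM in controls (SD, n = 5 each), and LCO 10 mg/L was 1.37-fold above ion (adjusted p = 0.00132, edgeR). Its log2 fold change against control was -0.37 under ion (adjusted p = 0.0142, edgeR), while LCO 10 mg/L and control differed by 0.08 (adjusted p = 0.443, edgeR).

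**Figure D2:**
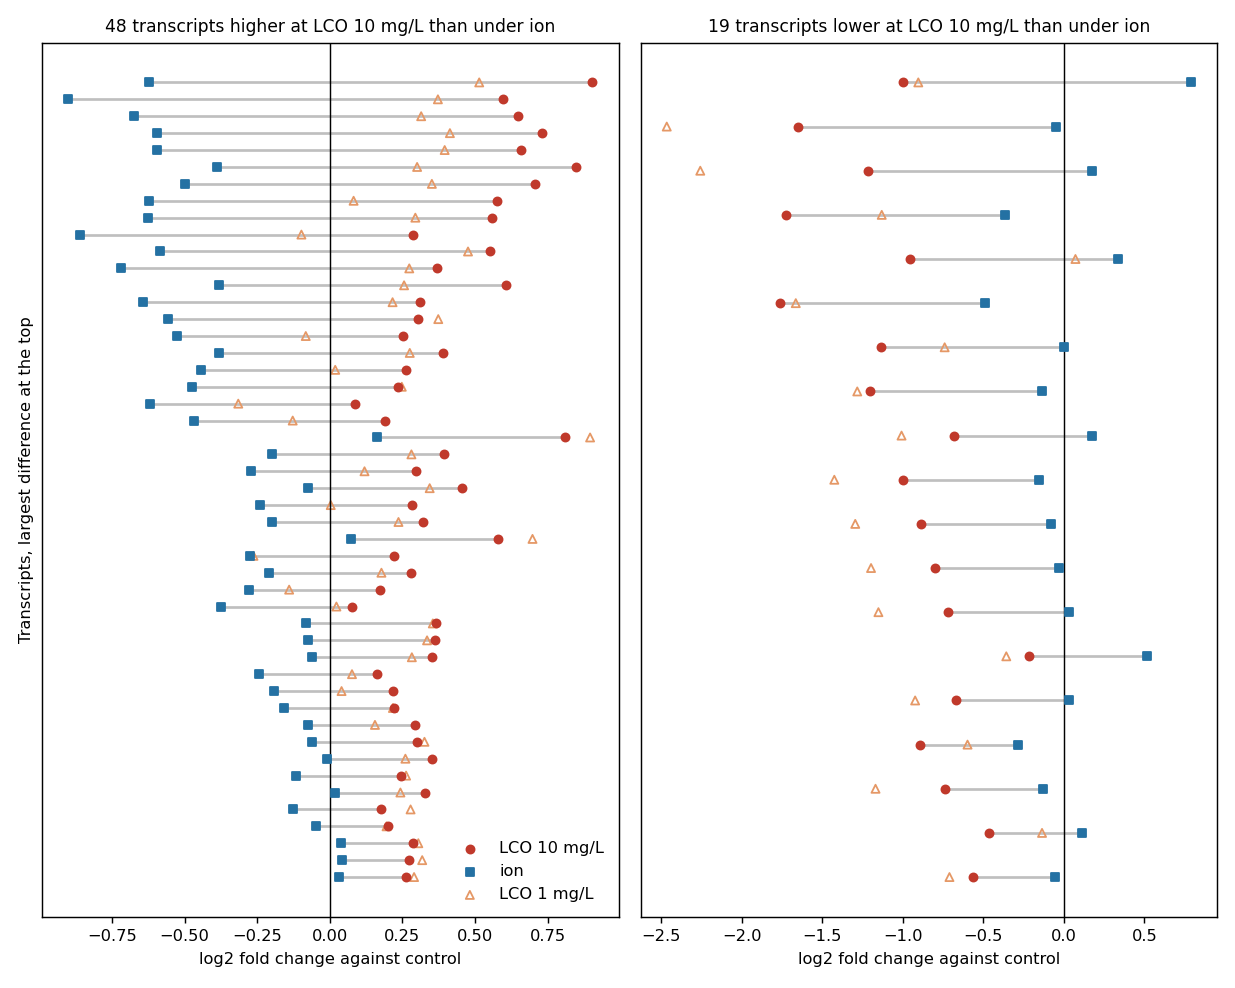
Log2 fold change against control (x) of the 48 transcripts higher (left panel) and the 19 lower (right panel) at LCO 10 mg/L than under ion, 1 row each and joined by a line, from the fit over all 20 libraries. Control stands at 0: the line crosses it in 42 of the 48 higher transcripts, and in the lower ones the ion squares have a median of -0.03 and a range of -0.49 to 0.79.

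The ion level of the higher transcripts ranged from slightly above the untreated level to well below it. Limits set after the values were seen took 13 and 14 of the 48 from that range. In 13 of them the ion mean was within 0.1 of control on the log2 scale. Their median difference from ion was 1.29-fold. Their place above control at LCO 10 mg/L, where all 13 were called, follows from their choice among transcripts already called above ion. Their median CPM was 32.2 and their median length 3785 bases. The one with the most counts (4512 bases) is also the higher transcript with the smallest fold. It averaged 218 ± 7.85 CPM at LCO 10 mg/L, 186 ± 6.43 CPM under ion and 182 ± 6.27 CPM in controls (SD, n = 5 each), a 1.17-fold difference from ion with an adjusted p of 0.0409 by edgeR. In deposited TPM, its means were 54.0 ± 9.70 at LCO 10 mg/L, 51.6 ± 0.871 under ion and 47.2 ± 1.22 in controls. There the spread at LCO 10 mg/L covered the ion mean. The part of the scaling to library size in such small differences was not tested. In 14 other transcripts the ion mean was at least 0.5 below control. Their median difference from ion was 2.24-fold, with medians of 0.55 above control at LCO 10 mg/L and 0.62 below it under ion (log2 fold change -0.62), and 4 of the 14 were called above control at LCO 10 mg/L. Over all tested, 2.28% were called higher in that contrast, which shares its LCO 10 mg/L libraries with the choice of the 14. Of the 14, the one with the most counts (711 bases) averaged 141 ± 17.9 CPM at LCO 10 mg/L, 72.8 ± 16.8 CPM under ion and 114 ± 12.5 CPM in controls (1.94-fold against ion, adjusted p = 0.00798, edgeR). The remaining 21 had ion levels from -0.498 to 0.16 relative to control, with a median of -0.27 (log2 scale), and a median difference from ion of 1.44-fold.

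Other higher transcripts mark the ends of the range in counts and in length. The one with the most counts of all 48 (933 bases) had 1432, 1511, 1410, 1452 and 1216 CPM in LCO 10 mg/L replicates 1, 2, 3, 4 and 6, against 873, 1059, 895, 951 and 949 CPM in ion replicates 1, 2, 3, 4 and 6. LCO 10 mg/L replicate 6 and ion replicate 2 came closest to each other. The means were 1404 ± 112 CPM at LCO 10 mg/L, 945 ± 71.9 CPM under ion and 1142 ± 156 CPM in controls (SD, n = 5 each), 1.49-fold against ion with an adjusted p of 0.0120 by edgeR. The longest (9735 bases) averaged 32.1 ± 1.90 CPM at LCO 10 mg/L, 25.0 ± 1.65 CPM under ion and 27.1 ± 1.60 CPM in controls, with an adjusted p of 0.0240 against ion by edgeR.

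The 19 lower transcripts had fewer counts than the higher ones, with a median CPM of 3.64 and a range of 0.586 to 26.0, and a median length of 1639 bases. ENSDART00000186059.1 (1221 bases) led the lower transcripts by p, among those whose mean log2 CPM reached 1. It had 9.73, 8.62, 8.19, 8.98 and 7.74 CPM in LCO 10 mg/L replicates 1, 2, 3, 4 and 6, against 16.4, 16.4, 17.4, 14.7 and 12.7 CPM in ion replicates 1, 2, 3, 4 and 6. The highest LCO 10 mg/L library was below the lowest ion library. The means were 8.65 ± 0.762 CPM at LCO 10 mg/L and 15.6 ± 1.86 CPM under ion (SD, n = 5 each), a log2 fold change of -0.85 (SE 0.12, 95% interval -1.11 to -0.58), or 1.80-fold lower (adjusted p = 0.00737, edgeR). Controls averaged 17.3 ± 2.26 CPM and overlapped the ion libraries. The log2 fold change against control was -0.9996 at LCO 10 mg/L (adjusted p = 0.000392) and -0.15 under ion (adjusted p = 0.695, edgeR). Its TPM averaged 8.76 at LCO 10 mg/L, 17.7 under ion and 18.3 in controls.

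ENSDART00000185298.1 (945 bases) had 15.8, 13.8, 12.9, 13.8 and 15.3 CPM in LCO 10 mg/L replicates 1, 2, 3, 4 and 6, against 25.5, 22.7, 19.9, 21.2 and 19.8 CPM in ion replicates 1, 2, 3, 4 and 6. Again no LCO 10 mg/L library reached an ion library. The means were 14.3 ± 1.21 CPM at LCO 10 mg/L, 21.8 ± 2.35 CPM under ion and 26.6 ± 2.84 CPM in controls (SD, n = 5 each). Its log2 fold change against ion was -0.61 (SE 0.10, 95% interval -0.81 to -0.40), or 1.52-fold lower (adjusted p = 0.0154, edgeR). This call was lost without LCO 10 mg/L replicate 3 (adjusted p = 0.0702), LCO 10 mg/L replicate 4 (adjusted p = 0.0558) or ion replicate 1 (adjusted p = 0.0519, edgeR), and over the 10 fits that leave out 1 library the adjusted p ran from 0.0213 to 0.0702. Against control its log2 fold change was -0.89 at LCO 10 mg/L (adjusted p = 0.000136) and -0.29 under ion (adjusted p = 0.373, edgeR).

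**Figure D3:**
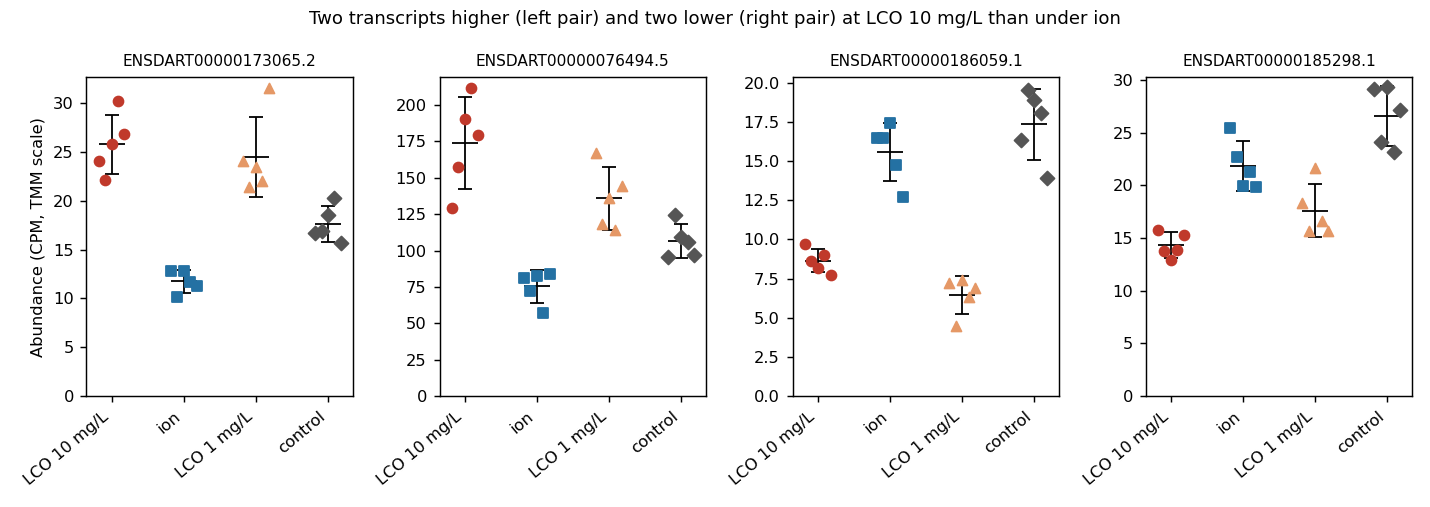
Abundance in CPM on the TMM scale (y, starting at 0) of the 4 transcripts described by identifier, for each library (points), with mean and SD (bars, n = 5) per group. LCO 10 mg/L and ion libraries do not overlap in any of the 4 panels, and controls lie between them for the 2 higher transcripts and near or above the ion level for the 2 lower ones.

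All 19 lower transcripts averaged below control at LCO 10 mg/L, and 17 were called lower than control, where 3.99% of all tested were called lower in that contrast. The contrast shares its LCO 10 mg/L libraries with the one that chose the 19, so their place below control partly follows from the choice. With replicate 1 alone, the median log2 difference from control was -0.83, and 1 library cannot show whether the calls hold. Under ion, the fitted fold change was below control in 11 and above it in 8, and 0 were called in either direction by edgeR. The unadjusted p was under 0.05 for 4 of them, beside 3945 of all 39355 tested. The median log2 difference from control was -0.89 at LCO 10 mg/L and -0.03 under ion. By mean CPM, the untreated level lay between the 2 groups in 9 of the 19 (47.4%) and above ion in 10 (52.6%), beside 26.2% and 47.0% of all tested for these positions. The 19 were chosen for their gap, so these percentages do not compare like with like either. In 1 transcript, whose ion and control levels were both 1.14 CPM, the fitted value and the mean CPM fell on different sides. The median share of the difference that lay between LCO 10 mg/L and control was 1.03. For the higher transcripts the same share was 0.561.

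Some of the lower transcripts had a fitted ion level above the untreated one. The one with the most counts (2319 bases) averaged 22.0 ± 2.41 CPM at LCO 10 mg/L and 36.6 ± 2.29 CPM under ion, while controls averaged 25.5 ± 5.06 CPM (SD, n = 5 each, 1.66-fold lower than ion, adjusted p = 0.0412, edgeR). Its ion libraries were therefore above the untreated mean, by 0.52 on the log2 scale (adjusted p = 0.230, edgeR). The one with the largest fold (1350 bases) had low counts, with 0.305 ± 0.149 CPM at LCO 10 mg/L, 1.08 ± 0.146 CPM under ion and 0.624 ± 0.217 CPM in controls (3.46-fold lower than ion, adjusted p = 0.0431, edgeR). The longest (10878 bases) instead had an ion level close to control, averaging 18.7 ± 3.03 CPM at LCO 10 mg/L, 31.5 ± 7.48 CPM under ion and 30.9 ± 3.62 CPM in controls (adjusted p = 0.0409 against ion, edgeR).

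In 2 lower transcripts the groups overlapped through 1 ion library each. The first (2412 bases) averaged 3.42 ± 0.935 CPM at LCO 10 mg/L, 8.36 ± 2.80 CPM under ion and 11.7 ± 2.12 CPM in controls (SD, n = 5 each), and its ion replicate 2 stood at 3.61 CPM. In the second (769 bases), ion replicate 6 had 5.12 CPM, below the 5.47 CPM of LCO 10 mg/L replicate 4. Ion replicate 2 was the lowest ion library in 11 of the 19 lower transcripts. Without it, the count of lower calls was 27, which held 13 of the 19.

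**Figure D4:**
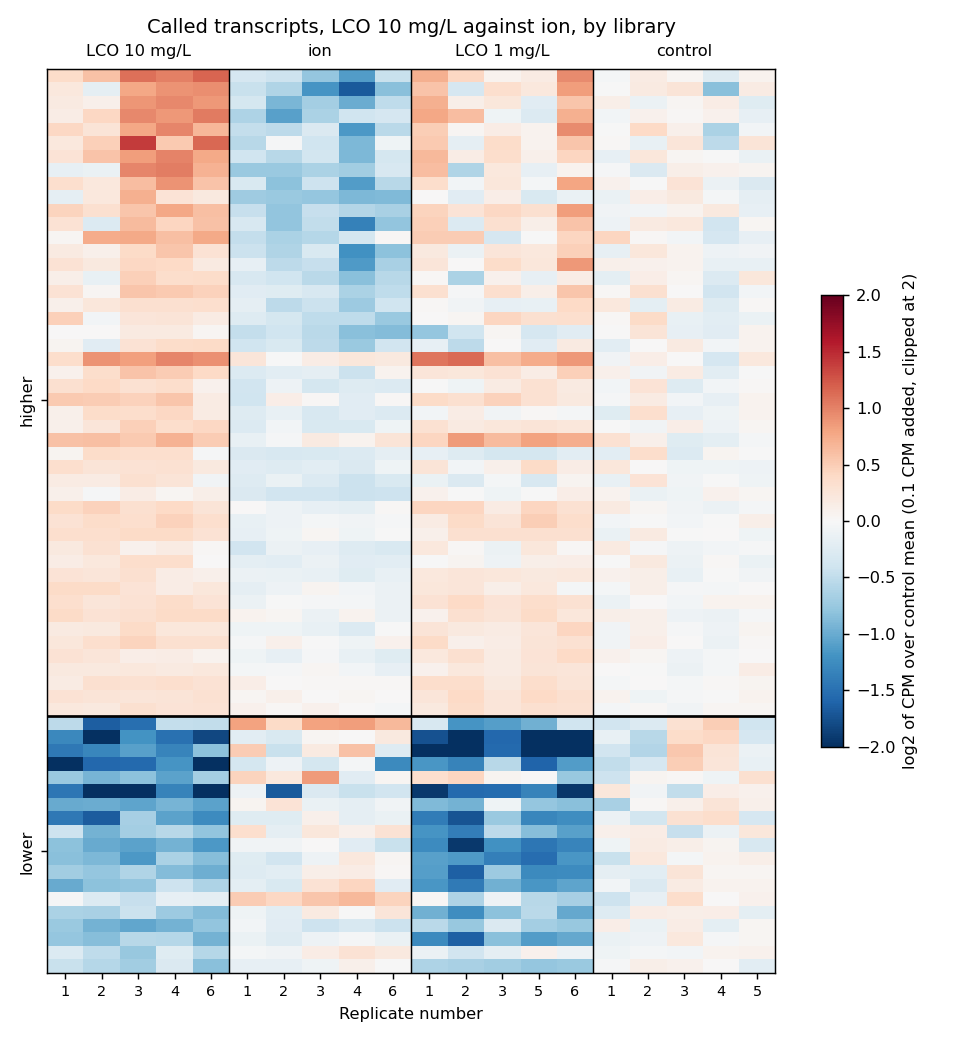
Log2 of CPM over the control mean (colour, 0.1 CPM added, clipped at 2) for the 48 higher and 19 lower transcripts (rows) in the 20 libraries (columns, by replicate number). Rows are ordered by the size of the difference. The ion columns of the higher block run from blue to near white, with group log2 differences from control of -0.90 to 0.16. Those of the lower block are mostly near white.

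The margin between the groups was narrow for many of the higher transcripts. The ratio of the lowest LCO 10 mg/L library to the highest ion library had a median of 1.16 and ran from 1.01 to 1.72. The lowest LCO 10 mg/L library was replicate 1 in 17 of the 48, replicate 2 in 15, replicate 6 in 13, replicate 4 in 2 and replicate 3 in 1. The highest ion library was replicate 1 in 15, replicate 2 in 12, replicate 6 in 11, replicate 3 in 9 and replicate 4 in 1. Values within each side of the first component follow as a description, since the 67 transcripts were chosen on these same libraries and the choice fixes their direction. On the controls' side, LCO 10 mg/L replicate 1 differed from ion replicates 1, 2 and 3 by a median of 0.47 over the higher and -0.76 over the lower transcripts (log2 CPM). On the other side, LCO 10 mg/L replicates 2, 3, 4 and 6 differed from ion replicates 4 and 6 by a median of 0.57 and -0.90. Ion replicates 4 and 6 differed from ion replicates 1, 2 and 3 by a median of -0.06 over the higher and 0.08 over the lower ones. With 1 against 3 or 4 against 2 libraries, these subsets called 8 and 1 transcripts by edgeR, and 0 of the 67 in either. Over all transcripts tested, 2467 of 43144 had an unadjusted p under 0.05 on the controls' side and 4831 of 38969 on the other side. Within groups, the higher transcripts had a median pairwise correlation of deviations from the group means of 0.13 over 20 libraries, beside 0.26 among the lower transcripts and -0.000381 among 2000 tested transcripts (a description, since the transcripts share libraries and depth).

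The LCO 1 mg/L libraries, which were in neither group of the direct comparison, gave a second reading of the 67 transcripts against the controls. Of the 48 higher transcripts, 42 (87.5%) averaged above control at LCO 1 mg/L, where 50.6% of all tested did so. The edgeR test called 18 of the 48 higher at LCO 1 mg/L, beside 4.34% of all tested, and 0 lower. Of the 19 lower transcripts, 18 (94.7%) averaged below control at LCO 1 mg/L, where 49.4% of all tested did so. The test called 15 of the 19 lower at LCO 1 mg/L, beside 8.41% of all tested, and 0 higher. The median log2 difference from control at LCO 1 mg/L was 0.27 for the higher and -1.13 for the lower transcripts. Without the libraries that stood apart on the first component, LCO 1 mg/L replicates 3, 5 and 6 were left. In this setting, added after seeing the data, the test called 16 of the 48 higher (2.67% of all tested) and 14 of the 19 lower (4.98% of all tested). The spread estimate that chose the 67 came from all 20 libraries, and transcripts with small spread or many counts pass any contrast more easily. Median CPM was 20.5 for the higher, 3.64 for the lower and 3.88 for all tested. The shares called therefore do not compare like with like.

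The LCO 1 mg/L values were also read in subsets of the higher transcripts. Over all tested, 50.6% averaged above control at LCO 1 mg/L and 4.34% were called higher, shares that do not compare like with like with these subsets. Of the 25 that were called above control at LCO 10 mg/L, 25 averaged above control at LCO 1 mg/L and 17 were called, with a median log2 difference of 0.30. Of the 23 that were not called above control at LCO 10 mg/L, 17 averaged above control at LCO 1 mg/L and 1 was called, with a median of 0.08. Those 23 had a median of -0.47 under ion, and the 25 a median of -0.08. Both subsets were chosen for a gap between LCO 10 mg/L and ion, then split by LCO 10 mg/L against control. Where LCO 10 mg/L lay little above control, that gap places ion below control. These ion medians therefore partly follow from the choice and the split. The 13 whose ion mean was within 0.1 of control included 12 called above control at LCO 1 mg/L. The split uses the controls that the LCO 1 mg/L contrast also uses, so the values are given side by side and the difference between the subsets was not tested.

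Of the 4 transcripts given by identifier, 3 passed the test against control at LCO 1 mg/L. Over all tested, 4.34% were called higher and 8.41% lower in that contrast. The 4 were named for their small p against ion, so these shares do not compare like with like. ENSDART00000173065.2 had 24.5 ± 4.09 CPM at LCO 1 mg/L, against 17.6 ± 1.82 CPM in controls (log2 difference 0.48, adjusted p = 0.00548, edgeR). ENSDART00000076494.5 had 136 ± 21.5 CPM, against 106 ± 11.6 CPM in controls (0.35, adjusted p = 0.0950, edgeR). ENSDART00000186059.1 had 6.46 ± 1.19 CPM at LCO 1 mg/L, against 17.3 ± 2.26 CPM in controls (-1.42, adjusted p = 1.7e-06, edgeR), beside 8.65 CPM at 10 mg/L. ENSDART00000185298.1 had 17.6 ± 2.51 CPM at LCO 1 mg/L, against 26.6 ± 2.84 CPM in controls (-0.60, adjusted p = 0.000364, edgeR).

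Most transcripts were measured closely enough to bound their difference. The 95% interval of the difference between LCO 10 mg/L and ion lay inside 2-fold in either direction for 29347 of the 39355 tested (74.6%), and 36 of the called transcripts were among these. Over 3 equal bins of abundance, this held for 38.4% of the lowest, 87.8% of the middle and 97.5% of the highest bin, with median half-widths of 0.86, 0.34 and 0.19 on the log2 scale. The highest bin held 38 of the 48 higher calls, the middle bin 9 and the lowest 1. Of the 19 lower calls, the highest bin held 5, the middle bin 11 and the lowest 3. At an unadjusted p under 0.05, 2075 transcripts were higher and 2367 lower at LCO 10 mg/L, 11.3% of those tested.

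**Figure D5:**
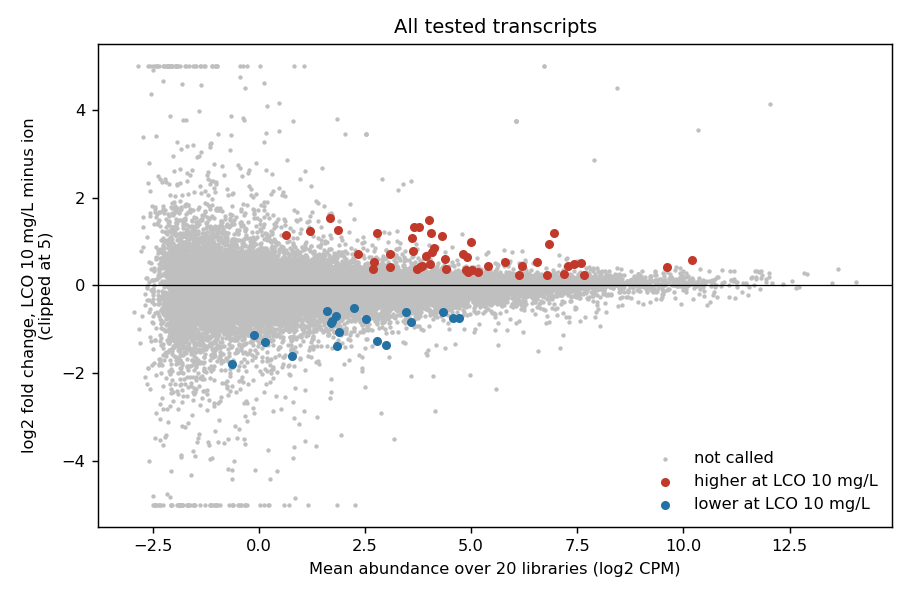
Log2 fold change of LCO 10 mg/L over ion (y, clipped at 5) against mean log2 CPM over 20 libraries (x) for the 39355 transcripts tested, with the 48 higher and 19 lower calls in colour. The called transcripts lie between -1.79 and 1.53 on the y axis, and the points beyond 2 or -2 are grey.

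The largest fold differences were not called. Of 414 transcripts beyond 4-fold, 173 were higher and 241 lower at LCO 10 mg/L, and 0 passed the edgeR test, the smallest adjusted p being 0.0554. The unadjusted p (edgeR) was under 0.05 in 229 of them, beside 4442 of all 39355 tested. The 414 were picked by fold on these same libraries, so such counts do not compare like with like. DESeq2 called 22 of the 414, beside 899 of all tested, and limma-voom 0, beside 44. DESeq2 gave no adjusted p for 6882 of the 39355, and how many of the 414 were among these was not counted. Most of the 414 had few counts, with a mean log2 CPM under 0 in 325. A single library carried many of these differences. It held more CPM than the other libraries of its group together in 99 of the 173 at LCO 10 mg/L and in 115 of the 241 under ion. The median share of the top library was 55.1% and 48.9% in these sets, against 22.1% in the 48 higher and 23.3% in the 19 lower calls. The calls came from a test that favours a small spread within groups, so their low shares partly follow from the choice.

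Among all 57775 transcripts in the files, 15 were listed at 0 in all 5 LCO 10 mg/L libraries and above 0 in all 5 ion libraries, and 2 showed the opposite. Of the 15, 14 were above 0 in at least 1 control library, 3 had enough counts to be tested and 0 were called by edgeR, although all 3 had an unadjusted p under 0.05. The 15 were chosen for zeros in the LCO 10 mg/L group, so these small p-values partly follow from the choice. DESeq2 called 1 of the 3, beside 899 of all 39355 tested, of which 6882 had no adjusted p, and limma-voom 0, beside 44. The one with the most counts (3783 bases) was at 0 in each LCO 10 mg/L library, against 23, 95, 96, 95 and 75 estimated counts in ion replicates 1, 2, 3, 4 and 6. Controls 1 to 5 had 0, 12, 79, 40 and 53 counts. The ion mean was 1.82 ± 0.687 CPM, and against a floor of 3 counts over the LCO 10 mg/L group the level was at least 93.9-fold lower than under ion, with an adjusted p of 0.0958 (edgeR; floors cover counting error only). LCO 1 mg/L replicates 1, 2 and 5 were also at 0, and replicates 3 and 6 had 43 and 11 counts. The LCO 10 mg/L libraries had fewer counts in total, with means of 31784100 at LCO 10 mg/L and 40862300 under ion (exact permutation p = 0.103, adjusted over 6 measures 0.155). They also had fewer transcripts above 0, with means of 44130 at LCO 10 mg/L and 45260 under ion (exact permutation p = 0.0476, adjusted 0.111). The share of counts in the 100 most abundant transcripts was 28.9% at LCO 10 mg/L and 26.7% under ion (exact permutation p = 0.0476, adjusted 0.111). The smallest p this design allows is 0.00794, and the part of these measures in the results above was not tested.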

How the data were processed

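RNA sequencing libraries of whole zebrafish larvae were analysed per transcript. The deposited tables hold, per the file headers, length, effective length, estimated counts and TPM of 57775 Ensembl transcripts for each library. Per the submitters' processing notes, the authors used FastQC 0.11.5, cutadapt 1.18, kallisto 0.45.0 and genome build GRCz11; settings are not given in the sources used here. The deposited estimated counts are not whole where a read was shared among transcripts. The deposited TPM values were used only as levels and entered no test.

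Estimated counts were rounded and tested with edgeR 4.0.16 in R 4.3.3. Transcripts were kept by filterByExpr (minimum count 10), which left 39355, and libraries were scaled by TMM. The quasi-likelihood fit used the 4 groups of 20 libraries and no other term, with two-sided contrasts. Calls were made at 0.05 after Benjamini-Hochberg adjustment over all transcripts, whatever the fold. Standard errors are the log2 fold change divided by the square root of F. Library measures were compared by exact permutation. The test was checked on simulated counts, drawn independently for each transcript and library. They held no split of libraries within groups, so the check does not cover the split seen on the first component.

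The naming rule took the 2 called transcripts per direction with the smallest p, a mean log2 CPM of at least 1, no overlap between groups and no counts shared with another transcript. Transcripts given by length were chosen after their values were seen. The comparison, lists and alternatives were chosen with earlier results of these data known. Gene lists, cell type markers and gene-level sums could not be run, since 0 identifiers matched a gene table. Transcripts of 1 gene share reads, so a change of the gene and a shift between its transcripts cannot be told apart. Of the kept transcripts, 398 repeated the counts of another, and 0 of the 67 called did.

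No library repeated another of its group: pairs within groups differed by a chi-square of at least 11.4 per degree of freedom. Pairs across groups were not compared in this way. The labels do not say whether pools shared parents or tanks, so p-values reflect only how these pools vary. Per the design text, libraries were selected on RNA quality. Alternatives covered DESeq2 1.42.0, limma 3.58.1 (voom), other scalings, filters and designs, and leaving out libraries.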

Additional observations from a re-analysis of the deposited data

Results flagged for a closer look

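Of 40 sets of 5 values tested, 1 held a library far from the others. ENSDART00000173065.2 stood at 31.6 CPM in LCO 1 mg/L replicate 6, and the gap to the next library was 0.741 of the range of the group. Chance flags about 1 in 20 such sets. The library is in neither LCO 10 mg/L nor ion.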

How the results depend on the processing

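The 48 higher and 19 lower transcripts kept their direction against ion in every alternative in which they were tested. Their choice on these same libraries largely fixed that direction. The number called varied widely. Beside 67 calls (48 higher, 19 lower), there were 899 with DESeq2 (501 higher, 398 lower; 6882 adjusted p not given), 44 with limma-voom (8 lower), 106 with RLE scaling (75 higher, 31 lower) and 73 higher with upper-quartile scaling. Without a filter on low counts there were 32 (28 higher, 4 lower), and with at least 1 CPM in 10 libraries 113 (43 lower). Fitting only the 10 libraries gave 77 (42 higher, 35 lower), which held 29 of the 48 higher and 10 of the 19 lower. The length gap as a covariate gave 37 (4 lower), and the first component score as a covariate 467 (240 higher, 227 lower), which held all 67. Without the 8 libraries apart from the controls on the first component there were 8 (0 higher, 8 lower), and without those on the controls' side 1 (1 higher, 0 lower). The fit without those 8 was also read against control, a setting added after seeing the data. At LCO 1 mg/L, 16 of the 48 passed as higher (2.67% of all tested) and 14 of the 19 as lower (4.98%). At LCO 10 mg/L only replicate 1 was left, with median log2 differences of 0.22 over the 48 and -0.83 over the 19, and 1 library cannot show whether the calls hold. The direct comparisons set 1 against 3 and 4 against 2 libraries, and a lone library is assumed to vary like the other groups. Leaving out 1 library gave 19 to 100 calls, 17 to 76 higher and 2 to 27 lower. It also moved the difference in total counts between -12890200 and -6926490 and in transcripts above 0 between -1439 and -946, both past the threshold without LCO 10 mg/L replicate 4 (adjusted p = 0.0476, exact permutation). The causes were not tested.

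The labels do not say what the replicate numbers mark. Same-numbered LCO 10 mg/L and ion libraries correlated by 0.339, -0.237, -0.0294, -0.00673 and 0.111 in their deviations. Of the 5 LCO 10 mg/L libraries, 0 correlated best with their own number. So few correlations cannot settle whether same-numbered libraries shared a batch. With a replicate block in the full fit there were 67 calls (36 higher, 31 lower), which were not the same 67. They held 29 of the 48 higher and 13 of the 19 lower transcripts of the main fit. With the replicate block and only the 10 libraries there were 0 (0 higher, 0 lower, with 4034 at an unadjusted p under 0.05). The gene-level sum was not run. Fewer counts widen the intervals of low transcripts most.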
